A study of Mus musculus with 11 samples.

Results

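Transcripts of the neurofilament chains Nefh, Nefm, Nefl and Ina and of the vesicle gene Vamp1 were followed in mouse retina across 4 groups that cross the rd10 mutation with an inhibitor of LSD1, a histone demethylase. These 5 genes are 5 of the 37991 rows of the deposited count table, picked by symbol because earlier results of these data had shown them lower after the inhibitor. The differences between inhibitor and saline are therefore given as a description, without a test. The differences between genotypes were not used to pick them and are tested, although they share their libraries with the inhibitor comparisons. Those tests are therefore not independent of the choice. All 5 genes passed the low-count filter, as did 17099 of the 37991 rows.

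The groups were rd10 mice given GSK2879552 (GSK), rd10 mice given saline, wild-type mice given GSK and wild-type mice given saline, with 3, 3, 3 and 2 libraries. The labels name the strains B6.CXB1-Pde6brd10/Jrd10 for rd10 and C57Bl/6J for wild type. The rd10 allele lies in Pde6b, which encodes a subunit of the rod phosphodiesterase, and every cell of the animal carries it. GSK was given intraperitoneally at 4.2 mg/kg each day and saline in the same way, from postnatal day 9 to day 24 in both treatments. The right retina of each mouse was taken on day 24, so each library is 1 animal and the whole tissue is mixed. The injections were systemic, so an effect need not start in the retina. Rods of rd10 mice are known to degenerate around these ages.

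Neurofilaments are the intermediate filaments of nerve cells. The light (Nefl), medium (Nefm) and heavy (Nefh) chains and α-internexin (Ina) assemble together, and the amount of filament sets the calibre of large axons. In the retina they are best known from ganglion cells, whose axons form the optic nerve, and from horizontal cells. Vamp1 (synaptobrevin-1) is a vesicle SNARE protein that pairs with syntaxin and SNAP-25 on the plasma membrane to release transmitter, and it is known from fast-firing neurons, where the paralog Vamp2 serves most other synapses.

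The sequence just before the start of each gene is the stretch on which promoter factors act, and 2 of the 5 genes had an entry in the RefSeq promoter table used (GRCm38.p6). The 250 bases upstream of Ina and Vamp1 are shown to set their promoter types side by side. They run 5′ to 3′ on the + strand, and capitals mark GGGCGG (GC box) or CCAAT on either strand. Ina lies at chr19:47014431-47014680 and Vamp1 at chr6:125215331-125215580.
Ina: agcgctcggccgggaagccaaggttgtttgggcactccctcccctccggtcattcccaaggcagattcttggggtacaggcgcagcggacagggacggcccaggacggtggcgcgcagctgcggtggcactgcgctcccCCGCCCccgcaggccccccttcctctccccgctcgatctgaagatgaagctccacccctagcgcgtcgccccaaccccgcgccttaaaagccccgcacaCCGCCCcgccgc
Vamp1: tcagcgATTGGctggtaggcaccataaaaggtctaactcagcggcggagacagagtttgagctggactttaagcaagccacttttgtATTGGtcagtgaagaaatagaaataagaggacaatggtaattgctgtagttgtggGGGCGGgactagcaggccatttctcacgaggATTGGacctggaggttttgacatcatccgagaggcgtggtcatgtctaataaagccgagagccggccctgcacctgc
The Ina stretch was 70.8% G and C and held 2 GC boxes and 0 CCAAT. The Vamp1 stretch was 50.4% G and C and held 1 GC box and 3 CCAAT. Over 32851 promoters of the same length the median was 52.4%, 32.7% held GGGCGG and 33.8% held CCAAT. Each of the pair also held 1 match to the E-box CANNTG, which 66.2% of promoters hold. TATAAA, the CRE TGACGTCA and the first part of the REST element, TTCAGCACC, were not in these windows on either strand, and 12.4%, 1.55% and 0.301% of promoters hold them. None of these matches overlapped another, and a match is a run of letters rather than a known binding site.

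Libraries held 19657030 to 28053367 counts, and each of the 5 genes had between 1971 and 19904 counts in a library. Counting error was therefore between 0.709% and 2.25% of a value, and it does not cover differences between animals. Levels are counts-per-million values (CPM) after trimmed-mean (TMM) scaling. Lens genes summed to 6669 CPM in rd10 GSK replicate 2 and to 641.6 CPM in wild-type saline replicate 2. The remaining libraries did not exceed 10.75 CPM, and results are also given without the 2 lens-bearing ones. Rod genes summed to 24160, 38570 and 46990 CPM in the 3 rd10 GSK libraries and 8054 to 9822 CPM in rd10 saline. They summed to 56050 to 58650 CPM in wild-type GSK and 60000 to 61400 CPM in wild-type saline. Xist, a transcript of the inactive X, was at most 0.338 CPM in 4 libraries (rd10 GSK 1 and 3, rd10 saline 2, wild-type GSK 2) and at least 780.5 CPM in the other 7. Wild-type saline was the group with no low library.

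Nefh, the heavy chain, whose tail carries many phosphorylation sites and spaces the filaments apart, had the lowest rd10 GSK mean of the 5 relative to its wild-type saline mean, at 56.9%. It stood at 114.4, 107.7 and 108.8 CPM in rd10 GSK, 145.7, 147.0 and 139.2 in rd10 saline, 127.5, 121.0 and 131.4 in wild-type GSK, and 197.1 and 190.7 in wild-type saline. No 2 groups overlapped, and the order from high to low was wild-type saline, rd10 saline, wild-type GSK, rd10 GSK.

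Nefm, the medium chain, kept the same order. It was at 220.0, 214.4 and 226.4 CPM in rd10 GSK, 293.0, 281.8 and 283.0 in rd10 saline, 246.0, 232.3 and 240.6 in wild-type GSK, and 322.4 and 315.3 in wild-type saline. Nefl, the light chain on which the others assemble, was at 587.9, 611.5 and 682.1 CPM in rd10 GSK, 787.5, 759.1 and 751.5 in rd10 saline, 733.1, 700.6 and 715.7 in wild-type GSK, and 903.3 and 874.2 in wild-type saline. Neighbouring groups did not overlap for either gene. The 3 rd10 GSK libraries were the most spread for Nefl (627.2 ± 49.02 CPM, SD, n = 3). Nefl and Nefm are neighbours on chromosome 14 on opposite strands. Their exons share 1108 bases in GENCODE M21, which need not be the annotation that was counted. How counting treated strand is not given in the sources, so reads in the shared stretch cannot be assigned to either gene.

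Ina, whose chain pairs with the other 3 in mature neurons and appears early in neuronal development, had a different order. It was at 152.7, 155.5 and 147.9 CPM in rd10 GSK, 205.7, 209.5 and 205.5 in rd10 saline, 163.4, 154.1 and 163.9 in wild-type GSK, and 202.3 and 184.8 in wild-type saline. Rd10 saline was highest, just clear of wild-type saline, and the 2 GSK groups overlapped. In the same annotation Ina shares 456 exonic bases with Nt5c2 on the opposite strand of chromosome 19, so part of its count carries the same uncertainty.

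Vamp1 was at 82.32, 90.93 and 90.01 CPM in rd10 GSK, 121.2, 127.5 and 126.2 in rd10 saline, 98.19, 95.51 and 94.16 in wild-type GSK, and 134.0 and 131.2 in wild-type saline. The groups kept the order of Nefh and did not overlap. The 2 saline groups were close together and so were the 2 GSK groups, with a gap between them.

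**Figure D1:**
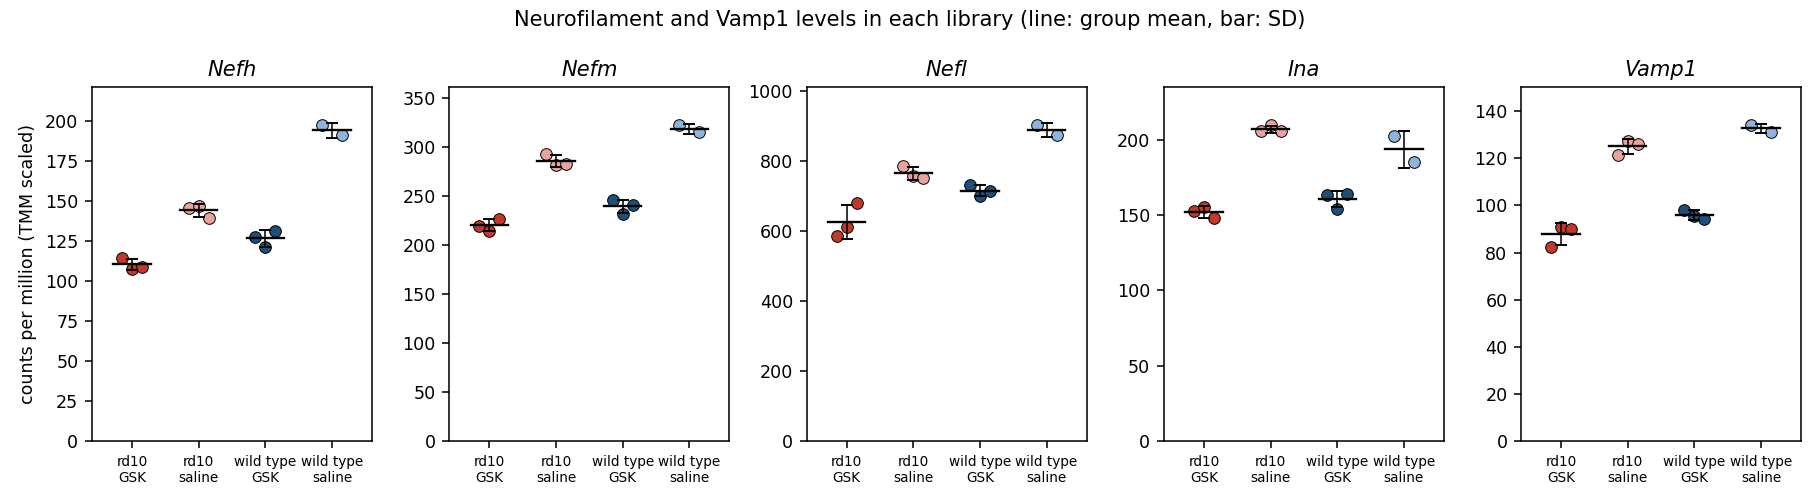
Level of each gene in each library in TMM-scaled CPM (vertical axis, from 0), by group (horizontal axis), with the group mean as a line and the SD as a bar; n is 3, 3, 3 and 2. The rd10 GSK libraries lie under the rd10 saline libraries, and the wild-type GSK libraries under the wild-type saline libraries, for all 5 genes.

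Within rd10 the 5 genes were lower with GSK than with saline by 0.29 to 0.51 on the log2 scale. Vamp1 differed most, by −0.51 ± 0.05 (SE of the fit), followed by Ina at −0.44 ± 0.05, Nefh at −0.38 ± 0.05, Nefm at −0.38 ± 0.05 and Nefl at −0.29 ± 0.06. The groups did not overlap for any of the 5, where 20.2% of all tested genes were lower without overlap. Over all genes 32.9% passed at adjusted p under 0.05 in either direction and 15.2% passed as lower, and the members' median was −0.38 against 0.01 for all genes. Since these differences chose the genes, nothing is read from those shares.

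The rd10 differences depend on what the libraries are scaled to. TMM holds the middle of all genes level. Scaling to 16 amacrine and bipolar genes moved the median of all genes to 0.35 in this comparison, and the members' median to −0.04. The 2 cell types did not move alike with TMM here. The median was −0.54 for 8 bipolar markers and −0.18 for 8 amacrine markers. Nefh was then at −0.04, Nefm at −0.04, Ina at −0.11 and Vamp1 at −0.17, and Nefl turned to 0.05. Of all genes that passed in this comparison, 53.6% were higher with TMM and 95.7% with the other scaling.

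Within wild type, where that scaling moved the median of all genes only to −0.03, the 5 genes were also lower with GSK than with saline. Nefh differed by −0.61 ± 0.05, Vamp1 by −0.47 ± 0.06, Nefm by −0.41 ± 0.05, Nefl by −0.31 ± 0.07 and Ina by −0.27 ± 0.06. The 3 GSK libraries lay under both saline libraries for each gene, as 17.3% of all genes did. Over all genes 0.532% passed at adjusted p under 0.05 and 0.0877% passed as lower, in a comparison that rests on 2 saline animals. The wild-type differences also chose the genes, so nothing is read from those shares. The members' median was −0.41 against −0.002 for all genes, −0.44 with the amacrine and bipolar scaling and −0.43 with the lens-bearing pair left out.

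The size of the difference varied between the genes in the 2 genotypes. The rd10 difference minus the wild-type difference was 0.23 ± 0.07 for Nefh, −0.17 ± 0.08 for Ina, and between −0.04 and 0.04 for Nefm, Nefl and Vamp1 with an SE of 0.07 to 0.09. The fitted drug difference was larger in wild type for Nefh and in rd10 for Ina, with no test. Over all genes 7.49% passed this interaction as higher and 4.98% as lower. With the amacrine and bipolar scaling all 5 values were above 0 with a median of 0.38, where the median of all genes was 0.36.

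**Figure D2:**
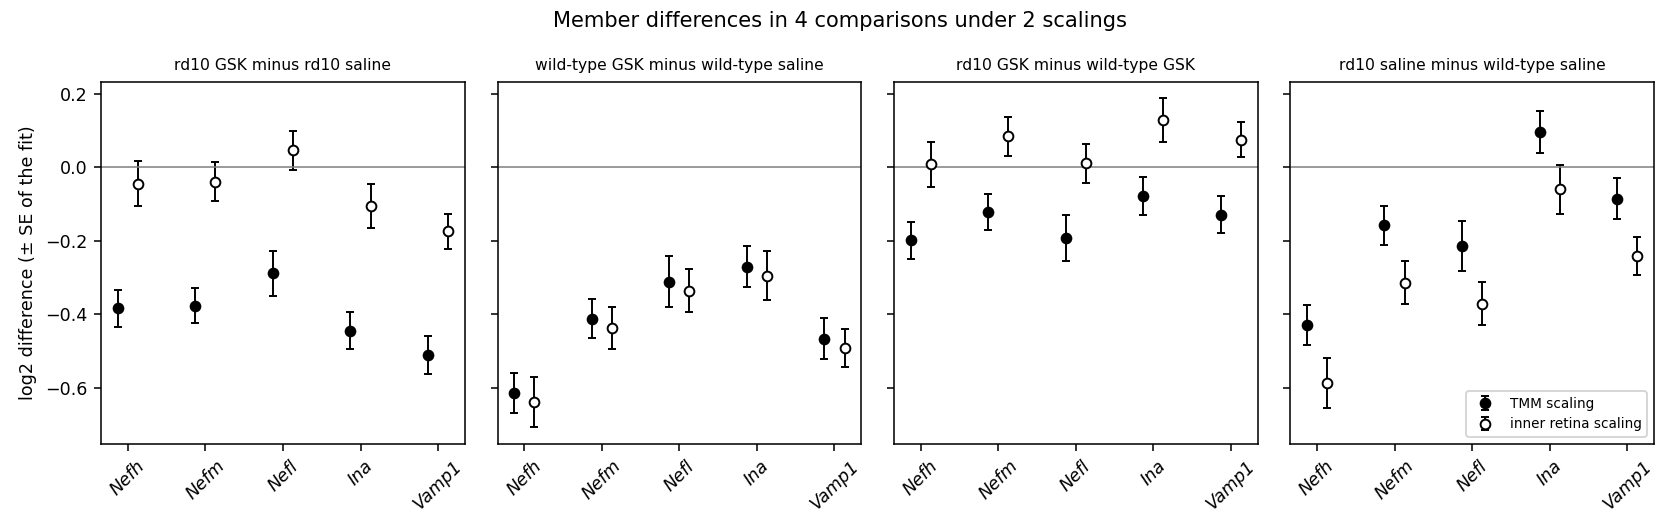
Log2 difference of each gene (horizontal axis) in 4 comparisons, with bars for ± 1 SE of the fit; filled points use TMM scaling and open points use scaling to 16 amacrine and bipolar genes. The wild-type GSK minus wild-type saline differences stay at −0.27 and lower under both scalings, whereas those of rd10 GSK minus rd10 saline move towards 0. With the second scaling the rd10 GSK minus wild-type GSK differences turn above 0. The median of rd10 saline minus wild-type saline moves from −0.16 to −0.31.

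The genotype was compared within each treatment, in contrasts that did not choose the genes but share libraries with those that did. Choosing genes lower with GSK favours genes high in the saline libraries, those of wild type included, and low in the GSK libraries. The choice can therefore shift these differences, and its part in them was not tested. In saline, rd10 retinas had lower Nefh, Nefm and Nefl than wild type, and Ina and Vamp1 did not pass the test. Nefh differed by −0.43 ± 0.05 (edgeR quasi-likelihood test, adjusted p = 0.000107). Nefl differed by −0.21 ± 0.07 (edgeR, adjusted p = 0.0263) and Nefm by −0.16 ± 0.05 (edgeR, adjusted p = 0.0337). Vamp1 was at −0.09 ± 0.06 (edgeR, adjusted p = 0.256) and Ina at 0.10 ± 0.06 (edgeR, adjusted p = 0.20). So 3 of 5 passed, all lower, where 40.5% of all genes passed in either direction and 19.0% were lower.

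Nefh passed under all 20 alternatives tried, with adjusted p from 9.83e-12 to 0.00323. Nefm and Nefl lost the call when either wild-type saline library, or rd10 saline replicate 3, was left out. They also lost it with the lens-bearing pair left out, so that 1 of 5 passed in each of these settings. Nefm further lost it with no low-count filter (edgeR, adjusted p = 0.063), with wild-type GSK replicate 3 left out (adjusted p = 0.0502) and when the fit held the saline groups alone (adjusted p = 0.0603), 7 of 20 alternatives in all against 4 for Nefl. With the amacrine and bipolar scaling, which moved the median of all genes to −0.14 and the share of passing genes that were higher to 29.9%, against 53.0% with TMM, Ina turned to −0.06 and Vamp1 passed at −0.24, so that 4 of 5 passed. In saline the genotypes did not overlap for any of the 5. Nefh, Nefm, Nefl and Vamp1 were lower in rd10 in this sense, as 29.7% of all genes were, and Ina was higher, as 32.5% of all genes were.

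In GSK, Nefh and Nefl were lower in rd10 than in wild type. Nefh differed by −0.20 ± 0.05 (edgeR, adjusted p = 0.0133) and Nefl by −0.19 ± 0.06 (edgeR, adjusted p = 0.0388). Nefm at −0.12 ± 0.05 (edgeR, adjusted p = 0.0814), Vamp1 at −0.13 ± 0.05 (edgeR, adjusted p = 0.0807) and Ina at −0.08 ± 0.05 (edgeR, adjusted p = 0.278) did not pass. The 2 of 5 compare with 26.2% of all genes in either direction and 10.9% lower. The libraries of Nefh, Nefm, Nefl and Vamp1 were lower without overlap, as for 21.4% of all genes, while 22.8% were higher without overlap and Ina overlapped.

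Of 20 alternatives Nefl lost the call in 11 and Nefh in 5. For Nefl these include the fit of only the compared groups (edgeR, adjusted p = 0.0796) and the fit with a replicate block (edgeR, adjusted p = 0.0564). With the amacrine and bipolar scaling, which moved the median of all genes to 0.21 and the share of passing genes that were higher to 92.9%, against 58.5% with TMM, all 5 values turned to between 0.01 and 0.13, and 0 passed in edgeR even at an unadjusted p under 0.05. With the lens-bearing pair left out 0 passed and 2 had an unadjusted p under 0.05. DESeq2 called 3 of 5 and limma-voom 2. Leaving out 1 library left between 0 and 2, with 0 when rd10 GSK replicate 2 or wild-type GSK replicate 1 or 3 was left out, and 1 when rd10 GSK replicate 1, wild-type GSK replicate 2 or either wild-type saline library was.

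Per kilobase of mRNA, Nefl was the most abundant neurofilament chain in every library and Nefh the least. Lengths were those of the RefSeq-matched transcripts: 3380 bases for Nefl, 3334 for Nefm, 3240 for Ina, 3994 for Nefh and 3011 for Vamp1. Levels of Nefl were 186 ± 14.5 CPM per kb in rd10 GSK, 227 ± 5.63 in rd10 saline, 212 ± 4.80 in wild-type GSK and 263 ± 6.08 in wild-type saline (SD, n = 3, 3, 3 and 2). The union of annotated exons is longer for Vamp1 (10167 bases) and Nefm (5782), and levels per length follow the length chosen. Over the mRNA length Vamp1 lay near Nefh, at 29.1 ± 1.57 CPM per kb in rd10 GSK, 41.5 ± 1.09 in rd10 saline, 31.9 ± 0.682 in wild-type GSK and 44.0 ± 0.651 in wild-type saline. Over the exon union its means were 8.63 CPM per kb in rd10 GSK, 12.3 in rd10 saline, 9.44 in wild-type GSK and 13.04 in wild-type saline, all under Nefh.

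The 4 chains together came to 315.7 to 342.6 CPM per kb in rd10 GSK, 405.5 to 420.8 in rd10 saline, 354.8 to 373.0 in wild-type GSK and 458.0 to 475.7 in wild-type saline. The groups did not overlap in this sum. The share of each chain within a library does not depend on the scaling. Nefl made up 56.8% ± 1.93 of the sum in rd10 GSK, 55.0% ± 0.350 in rd10 saline, 58.1% ± 0.401 in wild-type GSK and 56.3% ± 0.205 in wild-type saline. The share of Nefh was 8.48% ± 0.564 in rd10 GSK, 8.74% ± 0.198 in rd10 saline, 8.69% ± 0.235 in wild-type GSK and 10.4% ± 0.0354 in wild-type saline. Both wild-type saline libraries were above the 9 others in the Nefh share. The share of Ina was 14.4% ± 0.947 in rd10 GSK, 15.5% ± 0.354 in rd10 saline, 13.6% ± 0.189 in wild-type GSK and 12.8% ± 0.474 in wild-type saline, and Nefm stayed between 19.6% and 20.9% in all 11 libraries. Over the exon union the group shares of Nefm were 12.8% in rd10 GSK, 13.2% in rd10 saline, 12.4% in wild-type GSK and 12.9% in wild-type saline.

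**Figure D3:**
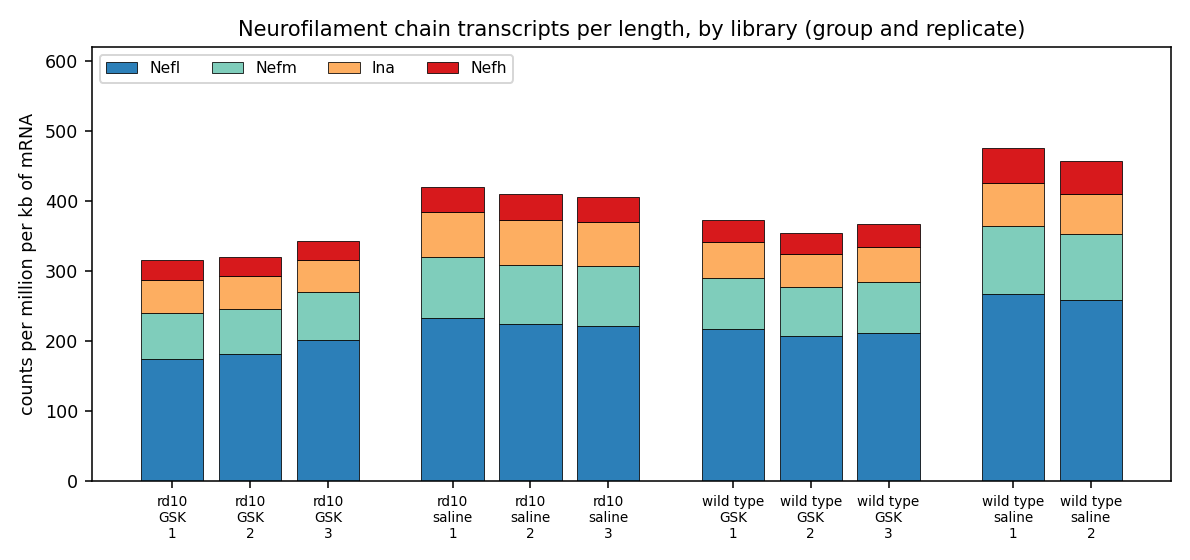
Neurofilament chain transcripts in each library, stacked, in CPM per kilobase of mRNA (vertical axis, from 0); each bar is 1 library, named by group and replicate. The rd10 GSK bars are shortest at 315.7 to 342.6 and the wild-type saline bars tallest at 458.0 to 475.7, with Nefl as the largest piece in each.

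The members resembled each other across the 11 libraries to different degrees. The likeness measure was the root mean square distance between log2 CPM values, each gene centred on its own mean. Nefm and Nefl were closest at 0.07, and Nefh and Ina farthest apart at 0.19. The distance to the mean profile of the 5 genes was 0.02 for Nefm, 0.06 for Vamp1, 0.07 for Nefl, 0.09 for Ina and 0.10 for Nefh. Over the 17094 other tested genes the median distance was 0.30. These points share libraries, depth and scaling. The 5 genes were picked as lower with GSK, and each is part of the mean profile. Their closeness therefore follows in part from the choice, and nothing is read from it.

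Among the 10 other genes closest to the mean profile were Sparcl1, Rgs4, Bend6, Clec2l, Vsnl1, Lypd6b, Cyp2s1, Nat8l and Aifm3, at distances from 0.04 to 0.09. Sparcl1 (hevin), a secreted matrix protein, was nearer to the mean than 4 of the 5 members, at −0.45 with GSK in rd10 and −0.35 with GSK in wild type. Rgs4, which shortens G-protein signals, was at −0.39 in rd10 and −0.32 in wild type. Vsnl1 encodes a neuronal calcium sensor and Nat8l the enzyme that makes N-acetylaspartate. They were picked for this pattern, so their differences carry no test.

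**Figure D4:**
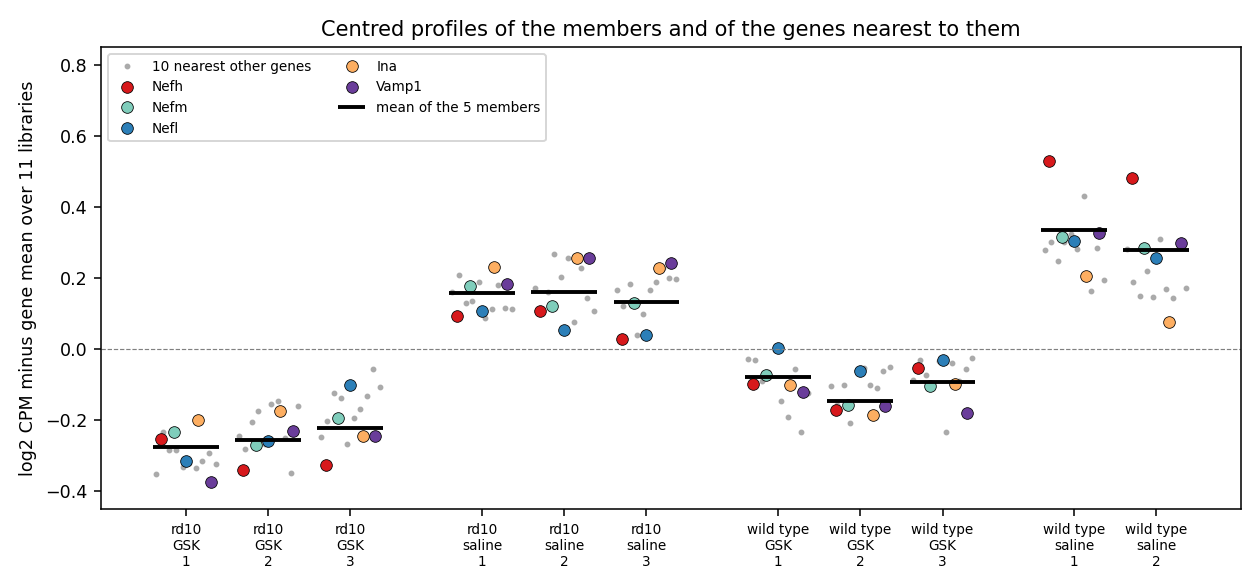
Log2 CPM of each gene minus its mean over 11 libraries (vertical axis), by library (horizontal axis); coloured points are the 5 genes, grey points the 10 nearest other genes and black lines the mean of the 5. The mean lies under 0 in all 6 GSK libraries and above 0 in all 5 saline libraries.

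Genes that work beside neurofilaments and Vamp1 were read from 5 lists of 88 genes in all, all of which were tested. These lists and the cell marker lists were chosen with earlier results of these data known. Their counts and p-values are therefore a description and not an independent test. In rd10, 7 of 88 were higher and 43 lower with GSK than with saline, against 17.6% and 15.2% of all genes. The same contrast in wild type gave 1 higher and 1 lower, against 0.444% and 0.0877% of all genes. That wild-type count depends on the fit: with only the wild-type libraries fitted 3 were higher and 24 lower of 88, against 3.53% and 2.11% of all genes. The 24 were 12 of the fast-spiking list, 6 of the ganglion cell list, 5 of the axonal list and 1 other intermediate filament. With the amacrine and bipolar scaling the rd10 split became 35 higher and 2 lower, so the direction of the lists in rd10 depends on the scaling.

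Of 6 other intermediate filaments, 1 was higher and 0 were lower with GSK in rd10, with a median of 0.26. In wild type 0 of 6 passed in edgeR, where 2 had an unadjusted p under 0.05, and DESeq2 called 1, limma-voom 0 and the fit of only the wild-type libraries 2. Prph (peripherin), the chain of peripheral and some central neurons, was at 66.36, 40.74 and 26.74 CPM in rd10 GSK, 43.09, 44.67 and 36.77 in rd10 saline, 24.34, 23.70 and 22 in wild-type GSK, and 7.753 and 7.511 in wild-type saline. The wild-type GSK libraries lay above both wild-type saline libraries, while the rd10 groups overlapped. In wild type Prph was at 1.61 ± 0.34 with GSK and did not pass (edgeR, adjusted p = 0.116). In rd10 saline against wild-type saline Prph rose by 2.44 ± 0.35 (edgeR, adjusted p = 0.000732). Des (desmin), the filament of muscle cells, rose with GSK in rd10 by 1.22 ± 0.21 at 3.35 ± 0.588 CPM in rd10 GSK and 1.44 ± 0.227 CPM in rd10 saline (edgeR, adjusted p = 0.00133). The 4 skeletal muscle markers summed to 3.623, 4.475 and 26.1 CPM in rd10 GSK and 1.948 to 2.677 CPM in rd10 saline, 1 of the 2 that could be tested was higher there, and their part in the Des value was not tested. The glial filaments Gfap and Vim rose in rd10 saline over wild-type saline by 3.56 ± 0.40 and 1.22 ± 0.28 (edgeR, adjusted p = 0.000281 and 0.00845). Vim lost that call without either wild-type saline library or the lens-bearing pair, while Gfap kept it under 20 alternatives. All 6 of the list passed as higher in rd10 GSK than in wild-type GSK. Of these calls Gfap, Vim and Nes held under 20 alternatives, while Prph was lost under 11, Synm under 6 and Des under 4, among them single libraries left out.

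Of 24 genes of the axonal cytoskeleton and transport, 16 were lower and 0 higher with GSK in rd10, with a median of −0.23, against 8 higher and 0 lower with the amacrine and bipolar scaling. Kif5c and Kif5a, kinesin motors that carry neurofilaments among other cargo, fell by 0.48 ± 0.06 and 0.40 ± 0.05 (edgeR, adjusted p = 0.000193 and 0.000196). Cntnap1, which joins axon and myelin beside the node, fell by 0.36 ± 0.05 (edgeR, adjusted p = 0.000352). With that scaling the 3 were at −0.14, −0.06 and −0.02 and did not pass. In wild type 0 of 24 passed in edgeR, with 5 at an unadjusted p under 0.05 and a median of −0.07, and DESeq2 called 1, limma-voom 0 and the fit of only the wild-type libraries 5, all lower. Kif5a averaged 364.5 ± 13.2 CPM in rd10 GSK, 479.6 ± 9.68 in rd10 saline, 400.2 ± 11.4 in wild-type GSK and 458.0 ± 14.1 in wild-type saline. For the genotype in saline 4 were higher and 2 lower of 24, where 21.5% and 19.0% of all genes were. The 4 higher, Dst, Ank3, Cntnap1 and Kif5c, lost the call with the lens-bearing pair left out, as did Tuba4a of the lower. Map2, the other lower gene, lost it without wild-type saline replicate 1. With the amacrine and bipolar scaling Ank3, Cntnap1 and Kif5c did not pass.

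The fast-spiking list, genes of neurons that fire at high rates, gave 1 higher and 12 lower of 19 with GSK in rd10, with a median of −0.33, against 5 higher and 2 lower with the amacrine and bipolar scaling. Pvalb, the calcium buffer parvalbumin, was at 11.37, 10.43 and 10.30 CPM in rd10 GSK, 23.01, 29.63 and 22.93 in rd10 saline, 9.338, 7.324 and 8.022 in wild-type GSK, and 13.30 and 16.43 in wild-type saline. GSK and saline libraries did not overlap within either genotype. Pvalb fell by 1.23 ± 0.13 in rd10 (edgeR, adjusted p = 4.9e-05) and by 0.85 ± 0.14 in wild type (edgeR, adjusted p = 0.0268), and with the other scaling it was at −0.89 and −0.88. The wild-type call was lost under 8 of 20 alternatives.

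Kcnab1 and Kcna1, subunits of a voltage-gated potassium channel, fell with GSK in rd10 by 0.42 ± 0.05 and 0.54 ± 0.08 (edgeR, adjusted p = 0.000172 and 0.00052) but did not pass with the amacrine and bipolar scaling, at −0.08 and −0.20. Syt2, a calcium sensor of fast release, fell by 0.37 ± 0.09 in rd10 (edgeR, adjusted p = 0.00836), lost the call with that scaling at −0.02 and with the lens-bearing pair left out, and was at −0.22 ± 0.10 in wild type (edgeR, adjusted p = 0.554). In wild type Pvalb was the 1 gene of 19 called, 10 had an unadjusted p under 0.05, and the list median was −0.20. With only the wild-type libraries fitted 12 of 19 were called, all lower.

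The SNARE and vesicle list was split in rd10, with 5 higher and 5 lower of 22 with GSK and a median of −0.03. Those that rose included Cplx4 and Stx3, at 1.27 ± 0.10 and 0.80 ± 0.08 (edgeR, adjusted p = 9.2e-06 and 3.22e-05), and both are known from the ribbon synapses of photoreceptors and bipolar cells. Those that fell included Syn1 and Snap25, at −0.33 ± 0.05 and −0.32 ± 0.06 (edgeR, adjusted p = 0.000785 and 0.00149). With the amacrine and bipolar scaling Syn1 and Snap25 turned to 0.003 and 0.02, and the list gave 15 higher and 0 lower. Vamp2, the paralog of Vamp1, did not pass with GSK in rd10 at 0.07 ± 0.06 (edgeR, adjusted p = 0.42) or in wild type at 0.03 ± 0.06 (edgeR, adjusted p = 0.971).

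Vamp2 averaged 943.8 ± 58.4 CPM in rd10 GSK, 902.0 ± 23.9 in rd10 saline, 1103 ± 14.6 in wild-type GSK and 1080 ± 31.8 in wild-type saline. It was lower in rd10 in saline at −0.26 ± 0.06 (edgeR, adjusted p = 0.00745) and in GSK at −0.22 ± 0.06 (edgeR, adjusted p = 0.0157). Vamp2 was at −0.42 in saline and −0.02 in GSK, where it did not pass, with the amacrine and bipolar scaling. The GSK call was also lost without wild-type GSK replicate 1 or 3 or the lens-bearing pair, and the saline call without wild-type saline replicate 1. The difference between the paralogs was not tested. Stx1a, a plasma-membrane partner of Vamp1, was the 1 gene of 22 called in wild type. It rose by 0.67 ± 0.09 (edgeR, adjusted p = 0.00529), with 26.5 ± 0.961 CPM in wild-type GSK and 16.7 ± 1.66 CPM in wild-type saline, and lost the call when either wild-type saline replicate 2 or the lens-bearing pair was left out.

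The ganglion cell list gave 0 higher and 10 lower of 17 with GSK in rd10, with a median of −0.26, against 3 higher and 0 lower with the amacrine and bipolar scaling. Thy1, a surface protein, Slc17a6, the vesicular glutamate transporter of these cells, and Rbpms, an RNA-binding protein, fell by 0.32 ± 0.06, 0.32 ± 0.06 and 0.35 ± 0.07 (edgeR, adjusted p = 0.00152, 0.00201 and 0.00394). With that scaling they were at 0.02, 0.02 and −0.02. In wild type 0 of 17 passed in edgeR, with 5 at an unadjusted p under 0.05, and DESeq2 called 1, limma-voom 0 and the fit of only the wild-type libraries 6, all lower. The median there was −0.06, and Slc17a6 was at −0.28 ± 0.07 (edgeR, adjusted p = 0.116). The summed level of the list was 1018 to 1215 CPM in rd10 GSK, 1330 to 1346 in rd10 saline, 1346 to 1371 in wild-type GSK and 1465 to 1532 in wild-type saline. It was lowest in rd10 GSK and highest in wild-type saline, as for Nefh, and the 2 middle groups met at 1346. Levels are relative to the other RNA of a library. In a whole retina fewer ganglion cells, less RNA per cell and more RNA from other cells cannot be told apart.

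**Figure D5:**
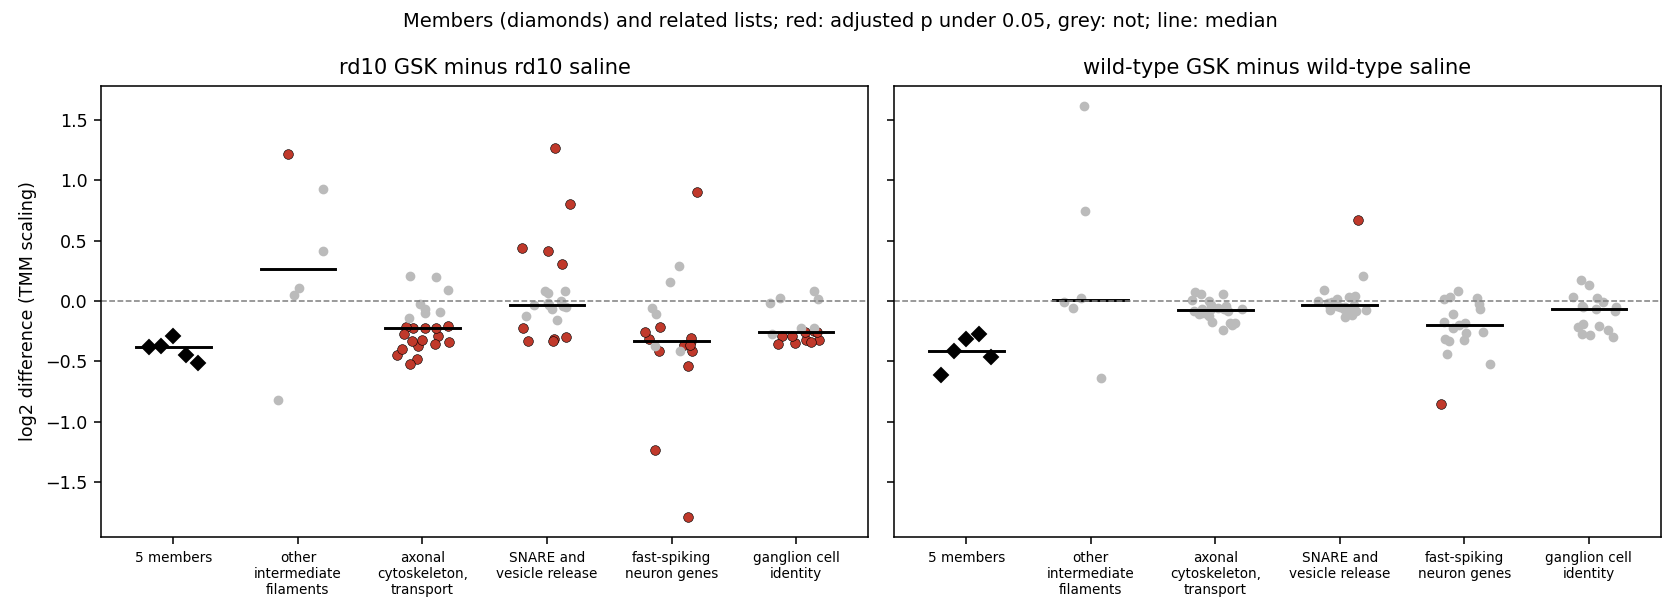
Log2 difference with GSK (vertical axis, TMM scaling) in rd10 and in wild type for the 5 genes (black diamonds, not tested) and the genes of 5 related lists (red, adjusted p under 0.05; grey, not); lines are medians. In rd10 the medians run from −0.38 for the 5 genes to 0.26 for the other intermediate filaments, and in wild type from −0.41 to 0.01.

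Markers of other cells moved in rd10 beside the neurofilaments, in a comparison where 17.6% of all genes were higher and 15.2% lower. With GSK 8 of 8 rod markers were higher, and 7 of 8 bipolar, 7 of 8 Müller glia and 3 of 6 horizontal cell markers were lower, with list medians of −0.54 for bipolar, −0.58 for Müller glia and −0.44 for horizontal cells. Of the amacrine markers 1 was higher and 3 were lower of 8, with a median of −0.18. All 8 microglia markers were lower, with a median of −1.16 and a sum of 119.5 to 219.7 CPM in rd10 GSK and 351.5 to 416.1 CPM in rd10 saline. Of cone markers 3 of 8 and of astrocyte markers 2 of 4 were lower, and 2 of 5 blood genes were higher. With the amacrine and bipolar scaling, which uses some of these genes, rod markers stayed at 8 higher, 7 microglia, 5 bipolar and 4 Müller markers were lower, 4 amacrine and 1 cone marker were higher, horizontal markers gave 1 in each direction and astrocyte markers 0. Horizontal cell markers summed to 329.7 to 373.0 CPM in rd10 GSK and 420.5 to 443.8 in rd10 saline, and to 429.9 to 442.7 in wild-type GSK and 422.6 to 427.9 in wild-type saline. In wild type 0 of the 38 rod, bipolar, amacrine, horizontal and Müller markers passed in edgeR, DESeq2 or limma-voom, 4 had an unadjusted p under 0.05 in edgeR, and list medians ran from −0.05 to 0.14. With only the wild-type libraries fitted in edgeR, 916 instead of 91 of all genes passed. That fit is not given for these markers, so the 0 of 38 holds for the fits of all groups. Markers of oligodendrocytes and optic nerve, which a dissection can carry, summed to 84.63 to 88.12 CPM in rd10 GSK, 96.54 to 103.3 in rd10 saline, 76.51 to 84.13 in wild-type GSK and 68.03 to 72.32 in wild-type saline. Mog and Mobp of that list did not pass the low-count filter. The part of these markers, of the lens genes and of Xist in the member levels was not tested.

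For the genotype within saline, the SNARE list gave 1 higher and 9 lower, led by Cplx4 at −1.55 ± 0.11, Stx3 at −1.14 ± 0.09 and Sv2b at −0.87 ± 0.10 (edgeR, adjusted p = 2.52e-06, 3.27e-06 and 3.85e-05). The fast-spiking list gave 4 higher, Pvalb, Syt2 and Spp1 among them at 0.76 ± 0.14, 0.41 ± 0.10 and 2.35 ± 0.57 (edgeR, adjusted p = 0.0015, 0.00732 and 0.013), and 4 lower, Ppargc1a and Kcnab2 among them at −0.81 ± 0.14 and −0.42 ± 0.08 (edgeR, adjusted p = 0.00141 and 0.00194). Pvalb kept its call under 20 alternatives. Spp1 lost it without either wild-type saline library or the lens-bearing pair, and Syt2 without wild-type saline replicate 2, without that pair and with the amacrine and bipolar scaling at 0.25. The ganglion cell list gave 1 higher, Grik2, and 1 lower, Jam2. Over the 88 genes 13 were higher and 16 lower, where 21.5% of all genes were higher and 19.0% lower. The counts were 7 and 37 with the amacrine and bipolar scaling and 4 and 12 with the lens-bearing pair left out. Within GSK, 6 of 88 were higher and 24 lower in rd10 than in wild type, all 6 of the higher being the other intermediate filaments, where 15.4% of all genes were higher and 10.9% lower. The counts were 17 and 5 with that scaling, and 4 and 10 with the lens-bearing pair left out.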

How the data were processed

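The authors deposited raw read counts per gene for 37991 Ensembl identifiers in 11 libraries. The submitters' processing notes name bcl2fastq, HISAT2 2.1.0, HTSeq and edgeR as tools and NCBIM37 and mm9 as builds. No strand setting or annotation is given in the sources, although the labels' protocols name a stranded polyA kit. GENCODE M21 named 32919 identifiers and left 5072 unnamed. Promoters came from RefSeq on GRCm38.p6, another build than the counts, so no other coordinates are given. Exon overlaps and transcript lengths came from GENCODE M21 on GRCm38, so they too may differ from the annotation that was counted.

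Counts were filtered with filterByExpr (minimum count 10, total 15), scaled by TMM and fitted with robust quasi-likelihood in edgeR 4.0.16 (R 4.3.3), with 1 coefficient per group over all 11 libraries. P-values were adjusted by Benjamini-Hochberg over 17099 genes at 0.05. The common coefficient of variation was 0.129. The test was run on simulated data first, and the outcome of that run is not given here. The 5 genes and all lists were chosen with earlier results of these data known. Named list genes are the 3 with the smallest adjusted p in each direction, plus Vamp2, Prph, Syt2, Snap25, Pvalb and Slc17a6. Alternatives were other scalings, no filter, DESeq2 1.42.0, limma-voom 3.58.1, fewer groups, a replicate block and left-out libraries. A few list genes that the rule names are not reported here.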

Additional observations from a re-analysis of the deposited data

Results flagged for a closer look

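For 7 genes of the related lists reported here, the drug difference was not the same in the 2 genotypes. They passed the interaction term of the edgeR fit at adjusted p under 0.05, as did 12.5% of all genes. Of all 88 list genes 4 passed as higher and 6 as lower, where 7.49% and 4.98% of all genes did. The counts are near those shares, so nothing is read from them about the lists. The rd10 difference minus the wild-type difference was 1.29 on the log2 scale for Cplx4 (edgeR, adjusted p = 0.000358) and 0.81 for Stx3 (edgeR, adjusted p = 0.00141). Both passed under all 19 alternatives tried. In rd10 these 2 genes were higher with GSK beside the rod markers, and their link to rod content was not tested.

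Another 5 values were less stable. Kif5c was at −0.38, Cplx3, a complexin of ribbon synapses, at −0.31, Kcnab1 at −0.31, Syn1 at −0.29 and Grik2, a kainate receptor subunit, at −0.49. Each lost the call under 9 to 14 of 19 alternatives, and Cplx3, Kcnab1 and Syn1 turned above 0 with the amacrine and bipolar scaling.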

How the results depend on the processing

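Scaling to amacrine and bipolar genes moved several results. The members' median went to −0.0445 for rd10 GSK minus rd10 saline and to 0.38 for the rd10 drug difference minus the wild-type one. For rd10 GSK minus wild-type GSK 0 members passed, and Nefh turned to 0.0079, Nefm to 0.0839, Nefl to 0.0106, Ina to 0.1284 and Vamp1 to 0.0749. Ina turned to −0.0602 for rd10 saline minus wild-type saline. Related genes passing became 44 for rd10 saline minus wild-type saline and 33 for the interaction. Over all genes 9619 passed in rd10 with GSK, against 5621 with TMM, 6996 against 4484 for rd10 GSK minus wild-type GSK and 7103 against 2131 for the interaction, where 97.5% against 60.1% were higher. The cause was not tested.

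Without the lens-bearing libraries 1 member passed for rd10 saline minus wild-type saline and 0 for rd10 GSK minus wild-type GSK, the interaction median was 0.0753, and related genes passing were 16 for rd10 saline minus wild-type saline, 14 for rd10 GSK minus wild-type GSK, 0 for wild-type GSK and 2 for the interaction. Fewer libraries were then fitted. With only the compared groups 1 member passed for rd10 GSK minus wild-type GSK, and 27 related genes passed for wild-type GSK, 3 higher and 24 lower of 88, where 5.64% of all genes passed. DESeq2 gave 5 related genes for wild-type GSK and 16 for the interaction, and limma-voom 1 for wild-type GSK. Over all genes 4081 instead of 6919 passed for rd10 saline minus wild-type saline, 2213 instead of 4484 for rd10 GSK minus wild-type GSK and 524 instead of 2131 for the interaction without the lens-bearing libraries, and 3588 instead of 5621 in rd10 with GSK with only the compared groups. The wild-type GSK comparison over all genes gave 91 with edgeR, 188 with DESeq2, 52 with limma-voom, 916 with only the compared groups and 12 without the lens-bearing libraries.

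Leaving out each library in turn gave 1 to 3 members for rd10 saline minus wild-type saline, 0 to 2 for rd10 GSK minus wild-type GSK, and interaction medians from −0.0421 to 0.0509, the lowest without rd10 GSK replicate 3. Related genes ran from 17 to 37 for rd10 saline minus wild-type saline, 15 to 42 for rd10 GSK minus wild-type GSK, 0 to 6 for wild-type GSK and 3 to 13 for the interaction. The wild-type GSK median of the members stayed between −0.44 and −0.39 under all 20 alternatives, while Ina alone ran from −0.34 to −0.20. The members were chosen on this contrast, so nothing is read from that median.

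Replicate numbers recur across groups, and the labels do not say what they mark. The animals were not treated as pairs. Of 15 same-number pairs 6 had a correlation over 0.1, and 8 of 11 libraries correlated best with their own number. The 15 values ran from −0.192 to 0.39, the highest between the 2 lens-bearing libraries. Every rd10 GSK library was below 0 with its number in rd10 saline and in wild-type GSK. The match expected by chance was not worked out, so no pairing is read from these values, and the design names none. With a replicate block 1 member passed for rd10 GSK minus wild-type GSK, Nefl losing its call (edgeR, adjusted p = 0.0564), 1 related gene passed for wild-type GSK, and the members' medians were −0.38 in rd10 and −0.42 in wild type with GSK.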
